A study of Mus musculus with 4 samples.

Results

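Leydig cells are the interstitial cells of the testis that make testosterone. They were examined here in 1 droplet single-cell library from a Znhit1 knockout testis at postnatal day 35. A Leydig barcode had at least 1000 UMIs (unique molecular identifiers, by which RNA molecules caught in a droplet are counted), at least 500 genes and at most 10% of UMIs from mitochondrial genes. Insl3, Cyp17a1, Cyp11a1, Hsd3b6 and Star together had to give at least 0.5% of its UMIs, and the germ cell genes Ddx4 and Dazl together at most 3 UMIs. The rule took 755 of the 8121 barcodes that passed the filters on depth and mitochondrial UMIs, or 9.30% (exact Clopper-Pearson 95% interval 8.67 to 9.95), out of 15306 barcodes in the library. The rule used measured levels of these same barcodes, so every level below is a description and none was tested. All intervals cover counting error only.

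The study profiled mouse testis cells as 4 libraries, 1 for each combination of genotype (control or Znhit1 knockout) and age (day 16 or 35), to ask what depletion of ZNHIT1 in germ cells does. ZNHIT1 is a subunit of a remodelling complex that exchanges histone H2A for its variant H2A.Z. The labels give the genotype as Znhit1_KO. They give neither strain, allele and Cre driver, nor the number of animals pooled. Only counts of the day 35 knockout library were analysed (those of the other 3 were not used here), so no value compares genotypes or ages.

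In the testis, luteinising hormone from the pituitary binds the receptor LHCGR on Leydig cells and raises cyclic AMP. STAR then moves cholesterol into mitochondria, where CYP11A1, fed with electrons by ferredoxin (FDX1), cuts it to pregnenolone. HSD3B enzymes, CYP17A1 and HSD17B3 carry the steroid on to testosterone, and INSL3 is a peptide hormone of the same cells.

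The library held 72459160 UMIs, and the Leydig barcodes 6867994 of them. The Leydig barcodes had a median of 9098 UMIs (1008 to 23477) and 3178 genes, against 4354.5 UMIs and 2255 genes in the 7366 other passing barcodes. The mitochondrial share had a median of 7.97% in Leydig barcodes and 6.20% in the others, and 165 Leydig barcodes lay between 9 and 10%. Another 280 barcodes met the Leydig marker and depth limits but had over 10% mitochondrial UMIs, 27.1% of the 1035 deep enough; over all deep enough barcodes of the library the share was 30.5%. The library shared 57, 66 and 81 barcode sequences with the other 3 libraries, of which 5, 1 and 3 were Leydig barcodes. Scrublet called 23 Leydig barcodes doublets (3.05%), and 13 also met the marker rule of another class; both kinds were kept.

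The 5 genes of the rule were found together in most members. All 5 had a UMI in 624 Leydig barcodes (82.6%), 4 had one in 120, 8 members had UMIs of 3 of them and 3 members of 2. Cyp17a1, the 17-alpha hydroxylase and lyase of androgen synthesis (chr19:46667165-46673172, mm10, minus strand), gave 43.1% of the marker UMIs, with 0 to 217 UMIs per barcode and a median of 38. Cyp11a1 had a median of 18 UMIs (0 to 76), Hsd3b6 of 16 (0 to 63), Insl3 of 8 (0 to 51) and Star of 6 (0 to 66). Each marker was also left out of the rule in turn, and the barcodes chosen by the other 4 were examined for it. Insl3 had a UMI in 96.8% of 696 such barcodes, Cyp17a1 in 99.03% of 514, Cyp11a1 in 96.1% of 639, Hsd3b6 in 93.6% of 608 and Star in 92.4% of 706. After thinning every barcode to 1000 UMIs, the shares were 60.6% for Insl3, 90.5% for Cyp17a1, 76.4% for Cyp11a1, 72.5% for Hsd3b6 and 46.5% for Star. In barcodes with at least 4 Ddx4 and Dazl UMIs, called germ barcodes here, the thinned shares were 2.82, 10.1, 7.02, 4.54 and 2.98% in the same order; unthinned they ran from 12.5% (Insl3) to 42.2% (Cyp17a1).

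**Figure D1:**
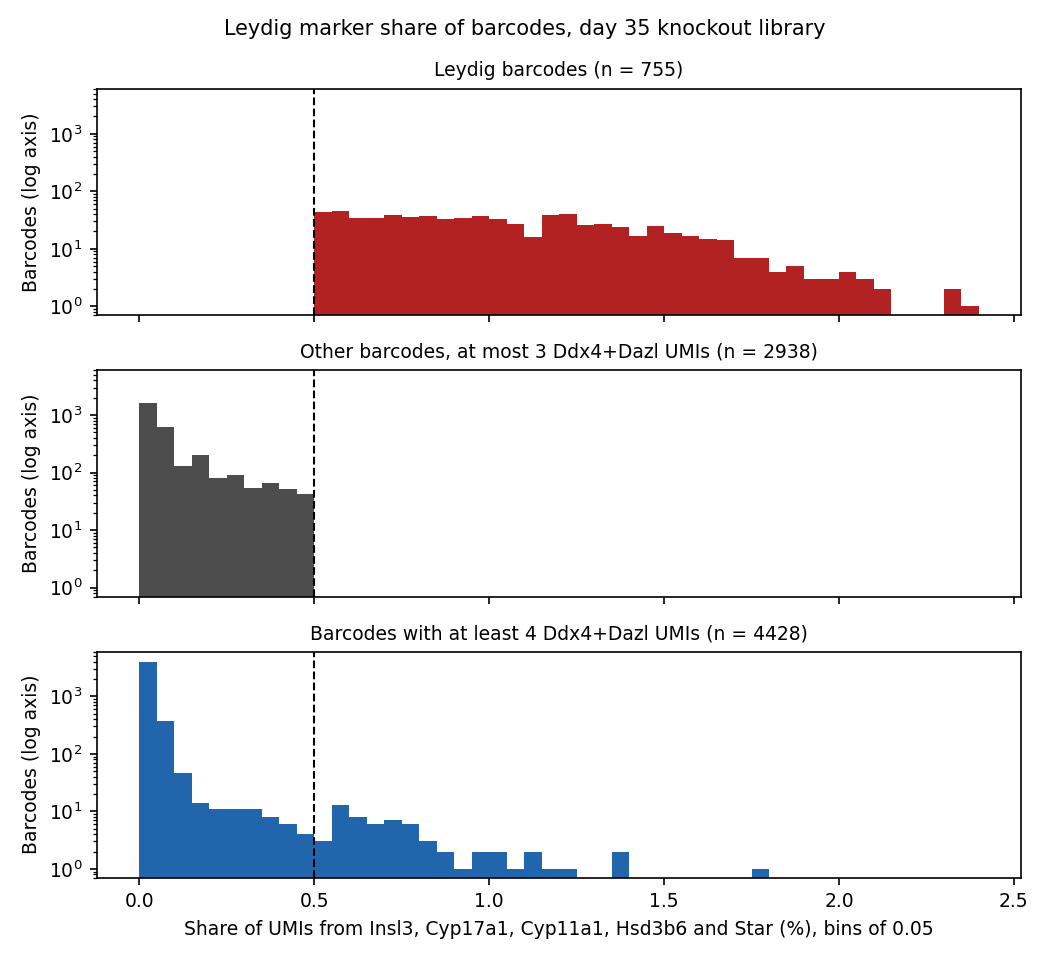
Number of barcodes (log axis) by the share of UMIs from the 5 marker genes (%, bins of 0.05) in Leydig barcodes, other barcodes with at most 3 Ddx4 and Dazl UMIs, and barcodes with at least 4; the dashed line marks 0.5%. The shares run on through the line with no gap.

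The marker share formed a continuous range, as the histogram of marker shares shows. The median share of the Leydig barcodes was 1.004% and the highest 2.36%. The 10 members nearest the limit lay at 0.501 to 0.512% with a median of 9055 UMIs and 46 marker UMIs, and the 10 nearest barcodes below it, all with at most 3 germ UMIs, at 0.490 to 0.49970% with 7705.5 UMIs and 38 marker UMIs. In all, 305 barcodes with at most 3 germ UMIs lay between 0.25 and 0.5%, 375 members between 0.5 and 1%, 368 between 1 and 2%, and 12 at 2% or more. A further 61 passing barcodes met the marker share but had more than 3 germ UMIs and were left out.

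The labelled cell type was checked against Leydig genes that the rule did not use. A list of 12 such genes, among them Hsd17b3, Hsd3b1, Fdx1, Lhcgr and Prlr, gave 9737 CPM (counts summed over barcodes and scaled to 1000000 UMIs of the same barcodes; exact Poisson 95% interval 9664 to 9812) in Leydig barcodes. The same list gave 3178 CPM in the 1245 barcodes that met no class rule, 2292 in 230 barcodes with stroma markers, 1493 in 392 with Sertoli markers, 838 in 43 with endothelial markers, 719 in 603 with peritubular myoid markers, 667 in 425 with macrophage markers and 563 in the 4428 germ barcodes. These classes are ranges of marker scores, not established cell types. Of the 12 genes, 11 were at least 2-fold higher than in all other barcodes and 0 lower. Against stroma barcodes 9 were higher and 1 lower, namely Hsd11b1, with 5 UMIs in Leydig barcodes. Over all genes 13.6% were higher than in all other barcodes, and 10.6% higher and 15.1% lower than in stroma barcodes.

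Markers of other cells were lower in Leydig barcodes than in the class they mark. The germ, peritubular myoid, stroma, macrophage, Sertoli and endothelial lists hold the genes that defined those classes. The limit on Ddx4 and Dazl UMIs also kept germ markers low in members. These contrasts were therefore fixed in part by how the barcodes were sorted. The 10 germ markers summed to 398 CPM, against 8152 in germ barcodes, and the 8 macrophage markers to 90.7, against 17228 in barcodes with macrophage markers. The 8 peritubular myoid markers summed to 312 CPM, against 18067, and the 7 endothelial markers to 16.9, with 1 of the 7 at 0. Of the 7 lymphocyte markers 6 were at 0, and the 4 globin genes summed to 7.13 CPM. The 8 stroma markers summed to 1225 CPM, below stroma barcodes (11224) and above germ (109), macrophage (115) and Sertoli (221) barcodes; 5 of the 8 were at least 2-fold higher and 3 lower than in all other barcodes. The 10 Sertoli markers summed to 1629 CPM, against 12506 in Sertoli barcodes; most of the Sertoli sum was Clu, a secreted chaperone, at 1002 CPM in members below 1% marker share and 1049 in those above. The part of these RNAs in the levels below was not tested.

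A gene was measured when it had at least 20 UMIs over both sets of barcodes, and it was called when the ratio of summed levels was at least 2-fold. Of 18625 measured genes, 13.6% were at least 2-fold higher in Leydig barcodes than in all other passing barcodes and 47.3% at least 2-fold lower, and the median log2 ratio was -0.89. Germ barcodes gave 79.0% of the UMIs of that reference. Against the 2938 other barcodes with at most 3 germ UMIs, 6.83% of 14988 genes were higher and 33.7% lower, with a median of -0.51. Both references also held barcodes with Leydig RNA: the 305 barcodes at 0.25 to 0.5% held 43.2% of the Lhcgr UMIs and 14.5% of the Cyp17a1 UMIs found outside the members, so neither is free of the RNAs compared.

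Steroid synthesis genes were mostly higher in Leydig barcodes. The list of 26 holds 4 rule genes (Star, Cyp11a1, Hsd3b6 and Cyp17a1), whose high level the choice of barcodes fixed. Of all 26, 23 were measured, 17 of them at least 2-fold higher and 3 lower than in all other barcodes, with a median log2 ratio of 2.66; against the other barcodes low in germ UMIs, 14 of 22 were higher and 3 lower, and against stroma barcodes, where 10.6% of all measured genes were higher and 15.1% lower, 14 of 20 were higher and 1 lower. Without the 4 rule genes, 13 of 19 measured were higher and 3 lower than in all other barcodes (median 2.36), 10 of 18 higher and 3 lower against the low-germ reference (1.29), and 10 of 16 higher and 1 lower against stroma (1.49). Fdx1, the ferredoxin that passes electrons to CYP11A1, had 26362 UMIs in Leydig barcodes, or 3838 CPM (3792 to 3885), against 338 in the others, an 11.4-fold difference. Hsd17b3, the enzyme of the last step to testosterone, stood at 440 CPM against 22.8, a ratio of 19.4 (95% interval 18.0 to 20.8). A UMI of Hsd17b3 was found in 85.3% of Leydig barcodes, and per 5000 UMIs the lowest barcode had 0, the median 2 and the highest 11.

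Enzymes that lead away from testosterone were unevenly represented. Srd5a1, a 5-alpha reductase, was at 98.0 CPM against 9.70 in the others, and Sult1e1, an oestrogen sulfotransferase, at 208 against 13.5. Sult1e1 UMIs were found in 40.8% of Leydig barcodes. Cyp19a1, the aromatase that makes oestrogens, had 8 UMIs in all Leydig barcodes (1.16 CPM), 21.4-fold below the other barcodes, whose level came with 30.4 CPM in germ barcodes. Against the low-germ reference its ratio was 0.272.

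**Figure D2:**
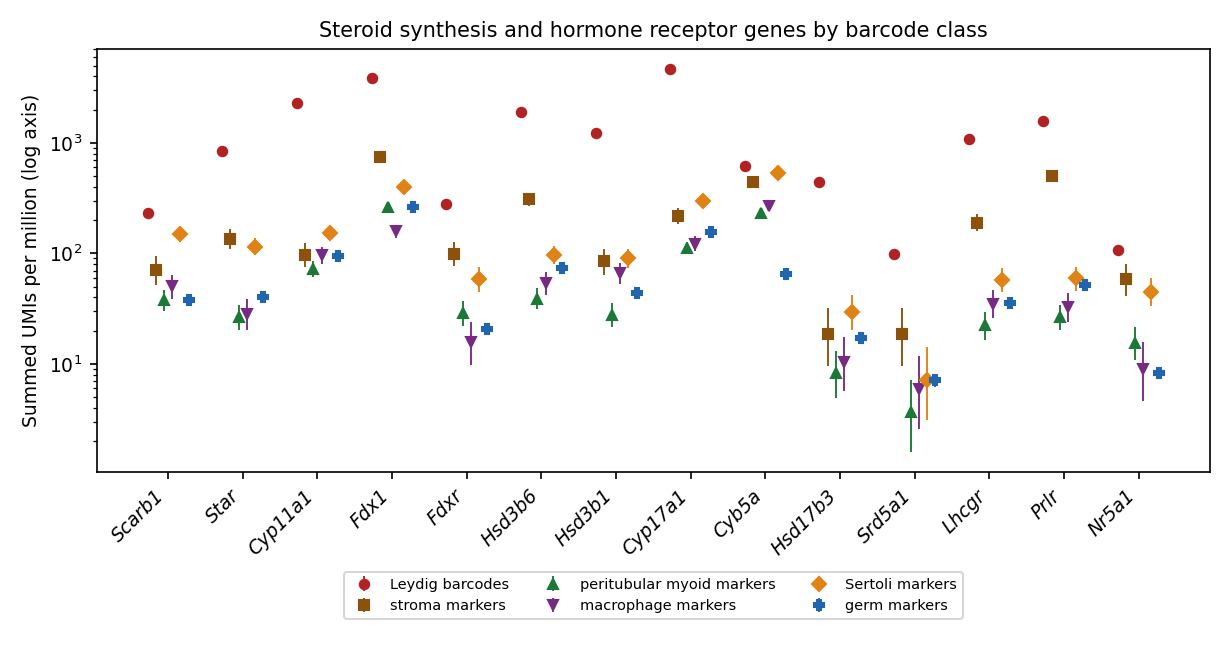
Summed CPM (log axis) of steroid synthesis, lipoprotein receptor, hormone receptor and Nr5a1 transcripts in 6 classes of barcodes; bars are exact Poisson 95% intervals. Leydig barcodes lie above every other class for all 14 genes, by little for Cyb5a (614 against 531 in Sertoli barcodes).

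Adult Leydig genes were high and fetal ones nearly absent. Of 9 adult genes, all measured, 8 were at least 2-fold higher against each of the references used (median log2 ratio 3.95 against all others). The list holds the rule genes Insl3 and Hsd3b6, and 6 of the other 7 were higher against each. Vcam1, an adhesion molecule, stood at 2239 CPM (182 in the others) and the prostaglandin D synthase Ptgds at 301 (26.4). The exception was Hsd11b1, which interconverts cortisol-type hormones with their inactive forms: only 5 UMIs were found in Leydig barcodes (0.728 CPM, 0.236 to 1.70), against 27.8 CPM in stroma barcodes. Both immature Leydig genes were above the other barcodes, Srd5a1 and Akr1c14, a hydroxysteroid dehydrogenase, the latter at 21.3 CPM in 15.6% of barcodes; against the low-germ reference only Srd5a1 was past 2-fold.

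Fetal Leydig genes were close to the detection limit. Of the 7, Mc2r, the ACTH receptor, Cyp11b2 and Crhr1 had 0 UMIs in the Leydig barcodes. Thbs2 and Cyp11b1 had 2 UMIs each and Dlk1 had 5. Cyp21a1, the 21-hydroxylase of the adrenal cortex, had 21 UMIs in 1.32% of Leydig barcodes with at most 4 per 5000 UMIs; its ratio of 5.23 had an interval of 2.80 to 9.66. A count of 0 in these barcodes allows up to 0.437 CPM, so low expression was not detectable at this depth.

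Most cholesterol synthesis genes were higher in Leydig barcodes. Of 25 measured genes, 23 were at least 2-fold higher and 1 lower than in all other barcodes (median log2 ratio 1.94), 23 of 25 against the low-germ reference and 20 of 25 against stroma barcodes. The shares of all genes higher were 13.6%, 6.83% and 10.6% in that order. Sc5d and Msmo1, which act on the sterol ring, were at 456 and 501 CPM, 10.2-fold and 9.09-fold higher. Insig2, which holds sterol regulators in the endoplasmic reticulum, was at 33.8 CPM against 81.2, a ratio of 0.416.

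Of the genes for cholesterol uptake, storage and transport, 17 of 26 measured were higher and 3 lower than in all other barcodes (median 1.88), and 9 of 25 were higher against the low-germ reference. Among all genes 13.6% were higher and 47.3% lower than in all other barcodes, and 6.83% higher against the low-germ reference. Plin1, a coat protein of lipid droplets, was 11.6-fold higher and found in 42.4% of Leydig barcodes. Abca1, which exports cholesterol, stood at 1023 CPM against 107. Scarb1, the receptor for high density lipoprotein, was at 231 CPM against 46.9. Abcg1, another exporter, had 5 UMIs in Leydig barcodes and was 10.1-fold lower.

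The receptor for luteinising hormone stood out from the rest of its pathway. Lhcgr had 7462 UMIs in Leydig barcodes, 1086 CPM against 68.0 in the others, with 0 to 32 UMIs and a median of 5 per 5000 UMIs. It was 15.98-fold above all other barcodes and 5.72-fold above stroma barcodes. Of the 29 measured genes of the LH receptor and cyclic AMP list only 7 were higher and 8 lower, with a median log2 ratio of -0.10. Among all genes 13.6% were higher and 47.3% lower. Against the low-germ reference 3 of 28 were higher and 10 lower, beside 6.83% and 33.7% of all genes. Pde8b, a phosphodiesterase that breaks down cyclic AMP, was 5.63-fold higher, and Gnas, the stimulatory G protein subunit, 3.43-fold higher than all other barcodes but level with stroma (ratio 0.883). The adenylyl cyclase Adcy7 was 7.40-fold lower.

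Other receptors differed in direction with the reference. Beside the counts below, 13.6% of all genes were higher and 47.3% lower than in all other barcodes. Against the low-germ reference these shares were 6.83% and 33.7%, and against stroma 10.6% and 15.1%. Of 33 receptor genes, all measured, 16 were higher and 9 lower (median 0.94), but 10 of 32 were higher and 11 lower (median -0.36) against the low-germ reference, and 6 of 29 higher and 10 lower against stroma. Prlr, the prolactin receptor, was at 1579 CPM against 107, with 0 to 24 UMIs per 5000 and a UMI in 98.9% of members. Oxtr, the oxytocin receptor, was at 84.4 CPM against 4.68 and found in 47.5% of members. Esr1, the oestrogen receptor gene counted also among the transcription factors, was 9.95-fold higher, and the bone morphogenetic protein receptor gene Acvr1 9.76-fold. Bmpr1b, another receptor of that family, had 2 UMIs in Leydig barcodes, 21.6-fold below the others.

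Transcription factors depended on the reference. Of all measured genes 13.6% were higher and 47.3% lower than in all other barcodes. Against the low-germ reference the shares of all genes were 6.83% and 33.7%, and against stroma 10.6% and 15.1%. The counts of this list against the low-germ reference lay near those of all genes. Of 32 measured, 16 were higher and 6 lower than in all other barcodes (median 0.90), but 3 higher and 12 lower (median -0.65) against the low-germ reference, and 3 of 28 higher and 10 lower against stroma. Nr5a1, which encodes SF-1, the regulator of steroid synthesis genes, was at 107 CPM, 7.70-fold above all others and 1.82-fold above stroma (1.31 to 2.59). Nr0b2 was 8.23-fold above all others with 103 UMIs. Cebpd was the most abundant of the list at 573 CPM, 6.84-fold above all others and below stroma (842). Zfpm2, a partner of GATA factors, was 9.50-fold lower.

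Genes tied to stem and progenitor Leydig cells followed the same course. Of 12, all measured, 5 were higher and 2 lower than in all other barcodes. Against the low-germ reference 1 of 11 was higher and 5 lower. With these references the shares of all genes were 13.6% and 47.3%, then 6.83% and 33.7%. Lifr, the receptor for leukaemia inhibitory factor, was at 413 CPM and higher under both. Pdgfra, 3.51-fold above all others, had a ratio of 0.917 (0.842 to 0.998) to the low-germ reference and 0.220 to stroma, so its direction reversed with the reference. Nr2f2 (3.52-fold above all others) had 303 CPM against 299 in the low-germ reference. Nes, which encodes nestin, had 6 UMIs in Leydig barcodes.

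Of 28 measured secreted factors, 1 of them the rule gene Insl3, 11 were higher and 14 lower (median -1.13). Among all genes 13.6% were higher and 47.3% lower. Against the low-germ reference 4 of 27 were higher and 15 lower, beside 6.83% and 33.7% of all genes. After Insl3 (20.4-fold), the largest ratios were those of Vegfd, a lymphatic growth factor, at 192 CPM against 19.2, and the chemokine gene Cxcl12 at 161 against 20.3. Cxcl12 was higher still in stroma barcodes, at 309. Igf1 was low in Leydig barcodes, with 9.90 CPM, 4.09-fold below all others and far below the 797 CPM of stroma. Fst, which encodes the activin-binding follistatin, had 2 UMIs.

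Oxidative stress defence genes were mostly higher than in all other barcodes: 24 of 36 measured against 2 lower (median 1.54). Against the low-germ reference 12 of 36 were higher and none lower. With these references the shares of all genes were 13.6% higher and 47.3% lower, then 6.83% and 33.7%. Ephx1, an epoxide hydrolase, was 18.6-fold higher, the glutathione transferase gene Gsta3 13.5-fold and the retinal dehydrogenase gene Aldh1a1 11.5-fold, at 3806 CPM. Some glutathione transferase genes are close paralogues, and how reads were split between them was not checked, so the value of Gsta3 is uncertain. Of the 17 dissociation stress genes, 13 were higher and 2 lower than in all other barcodes. Against the low-germ reference 0 were higher, near the 6.83% of all genes, and 1 was lower, beside 33.7%. Fos, an immediate early gene, was at 1048 CPM in Leydig barcodes, 71.5 in germ barcodes and 1691 in stroma.

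Cell cycle genes were lower than in all other barcodes and than in the low-germ reference, and closer to the levels of stroma barcodes. Of 22 measured, 21 were at least 2-fold lower than in all other barcodes and 0 higher (median -3.31). Among all genes 47.3% were lower and 13.6% higher. Against the low-germ reference 17 were lower and 0 higher, beside 33.7% and 6.83% of all genes. Against stroma barcodes 6 of 20 were lower and 14 within 2-fold (all genes: 1784 of 11817 lower). Against peritubular myoid barcodes 4 were lower, 1 higher and 15 within (all genes: 2307 of 12534 lower and 1809 higher). Against Sertoli barcodes 14 of 22 were lower and 8 within (all genes: 3726 of 12213 lower). Mki67, a marker of dividing cells, was found in 5.96% of Leydig barcodes at 11.2 CPM, against 204 in all others, 49.6 in the low-germ reference and 21.6 in stroma. Ccnd2 was the most abundant of the list, at 114 CPM.

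The gene targeted in this library was detected in Leydig barcodes. Znhit1 had 127 UMIs there, or 18.5 CPM (15.42 to 22.002), in 15.8% of barcodes, against 5.24 in all other barcodes and 20.1 in stroma barcodes. Which part was deleted is not stated in the sources, and 3′ UMIs may come from outside it, so this count does not check the deletion. Germ barcodes gave 79.0% of the UMIs of all other barcodes, and the study depletes ZNHIT1 in germ cells. The higher Znhit1 level in Leydig barcodes than in that reference cannot be told apart from an effect of the knockout. Of 12 genes for H2A.Z and its deposition, 1 (Znhit1) was higher and 8 lower than in all other barcodes. Among all genes 13.6% were higher and 47.3% lower. Against the low-germ reference 0 were higher and 1 was lower, beside 6.83% and 33.7% of all genes. H2afz itself was at 637 CPM, 1241 in all other barcodes and 644 in stroma.

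**Figure D3:**
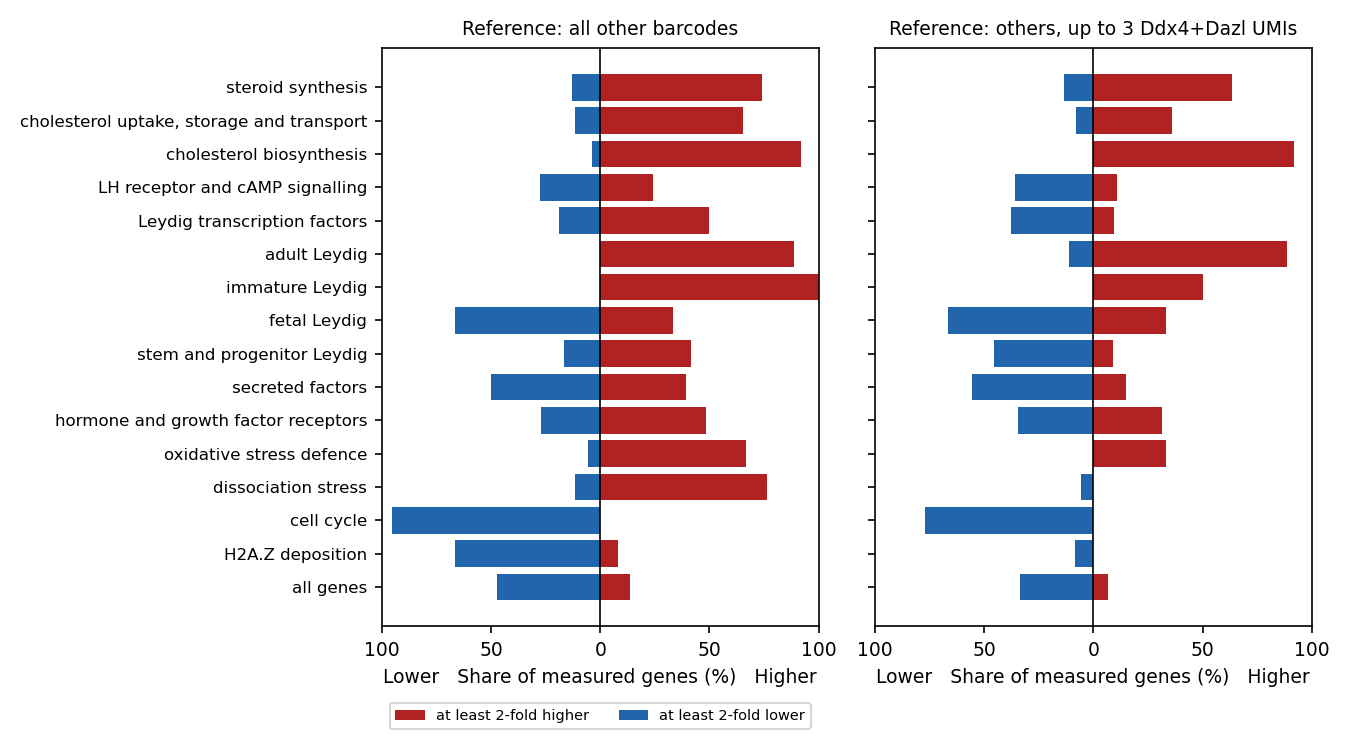
Share of the measured genes of each list, and of all genes, that were at least 2-fold higher (right, red) or lower (left, blue) in Leydig barcodes than in all other barcodes (left panel) and than in other barcodes with at most 3 Ddx4 and Dazl UMIs (right panel). Cholesterol biosynthesis keeps 23 genes higher in both panels, while dissociation stress goes from 13 to 0.

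Rhbg, an ammonia channel, had the largest of the 25 largest ratios outside the rule, with 33.1 CPM against 1.28, a ratio of 25.8 (19.2 to 35.1), and a UMI in 21.2% of members. Lcn2, an iron-siderophore binding protein, was at 2409 CPM against 131 (18.4-fold) and the water channel gene Aqp2 at 309 against 16.9 (18.3-fold). Bhmt, which remethylates homocysteine, was 18.6-fold higher and found in 96.0% of members, and Ass1 of the urea cycle 17.0-fold at 2163 CPM. Cd36, a fatty acid transporter, was 16.3-fold higher, and Mrap, the accessory protein of the ACTH receptor, also 16.3-fold; the receptor gene Mc2r had 0 UMIs. Against the low-germ reference the 25 genes of largest ratio were between 6.15-fold (Mrap) and 20.6-fold (Rhbg) higher.

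Reads of near-identical paralogues may have been split or merged in counting, which makes the values of some of these genes uncertain: Klk1b27 (222 CPM, 18.4-fold) of the kallikreins, and Nat8f5 and Nat8 (21.8-fold and 17.7-fold) of the acetyltransferases. Among genes of at least 100 CPM in the others, Tex15, Lin28b, Ankrd31 and Cecr2 were in the 5 smallest ratios; Tex15, needed for meiotic recombination, was at 12.4 CPM against 421. By level, Malat1 (27996 CPM), a nuclear long non-coding RNA, Fabp3 (7209), a fatty acid binding protein, and Fth1 (6001), the ferritin heavy chain, led the nuclear genes apart from Gm42418, which overlaps ribosomal RNA repeats and is uncertain. Fabp3 was 14.9-fold above all other barcodes and had a UMI in 99.9% of members.

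Sequence upstream of these genes was searched for 2 motifs on both strands, in the 250 bases before the RefSeq start (GRCm38.p6). The SF-1 motif was CAAGGTCA or CAAGGCCA and the GATA motif was the letters GATA preceded by A or T and followed by A or G; neither motif holds the other. Of 32851 promoters in the table, 3.28% held the SF-1 motif and 26.5% the GATA motif. Promoters of 3 of the 5 rule genes were matched, 4 entries in all: 0 held the SF-1 motif and 2 the GATA motif. Of the 25 genes of largest ratio 21 were matched: 4 (19.0%) held the SF-1 motif, namely 2900052N01Rik, Bhmt, Gm33906 and Itih2, and 8 (38.1%) the GATA motif. These 2 shares count genes, while the 3.28% and 26.5% count promoter entries. A gene can have several entries, so the shares are not directly comparable. Looking at these 25 followed the finding of 0 in the rule genes, and no test was made. The sequences shown are those of the genes with an SF-1 motif, in capitals, and of Insl3, the Leydig hormone gene, for contrast; they end before the first GENCODE exon, and Bhmt is not shown because its motif lies inside an exon.
Insl3 (chr8:71689002-71689213, plus strand): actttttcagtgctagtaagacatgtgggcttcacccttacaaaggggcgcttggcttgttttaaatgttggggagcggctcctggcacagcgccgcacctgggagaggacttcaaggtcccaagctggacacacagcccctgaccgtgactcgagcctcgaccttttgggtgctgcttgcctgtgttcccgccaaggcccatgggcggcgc
2900052N01Rik (chr9:46913353-46913492, plus strand): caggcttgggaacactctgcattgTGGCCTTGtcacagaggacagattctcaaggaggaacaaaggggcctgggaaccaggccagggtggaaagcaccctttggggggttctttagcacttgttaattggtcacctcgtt
Gm33906 (chr14:123043032-123043281, plus strand): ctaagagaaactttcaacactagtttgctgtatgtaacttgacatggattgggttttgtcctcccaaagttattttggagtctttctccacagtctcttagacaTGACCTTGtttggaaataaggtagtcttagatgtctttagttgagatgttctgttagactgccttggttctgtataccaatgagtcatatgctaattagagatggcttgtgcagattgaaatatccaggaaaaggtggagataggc
Itih2 (chr2:10130684-10130933, minus strand): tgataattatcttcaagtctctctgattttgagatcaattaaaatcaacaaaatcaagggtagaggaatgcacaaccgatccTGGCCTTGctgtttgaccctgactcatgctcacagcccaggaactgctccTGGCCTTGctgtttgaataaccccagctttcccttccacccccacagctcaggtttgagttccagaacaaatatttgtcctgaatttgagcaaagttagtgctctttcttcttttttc
Itih2, an inter-alpha-trypsin inhibitor heavy chain gene (240 CPM, 18.0-fold), held the motif at 2 places, 168 and 118 bases before the start. Gm33906, a gene with no assigned function (62.2 CPM, 18.1-fold), held it 146 bases before, and 2900052N01Rik (18.2 CPM, 21.9-fold) 226 bases before. The capitals are matches of letters and do not show that the factor binds there.

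Genes outside the rule were compared across the range of marker share. Members at 1% or more differed little from members at 0.5 to 1%: of 7259 genes with at least 100 UMIs over both, 99.3% were within 2-fold, 12 were higher and 36 lower. Cyp17a1 was 2.60-fold higher at the high end, which the rule in part fixes, Klk1b27 2.44-fold and Lcn2 2.15-fold. The hormone receptor genes Lhcgr and Prlr did not follow: Lhcgr was at 1190 CPM in the lower range and 992 in the higher (ratio 0.834), and Prlr at 1653 and 1512. Scarb1, the lipoprotein receptor gene, rose from 177 to 280 CPM (ratio 1.58). Tagln and Acta2, smooth muscle genes, were lower at the high end (ratios 0.195 and 0.266), as was the macrophage gene C1qa (0.305). These marker RNAs moved with the share, and their part was not tested.

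The 305 barcodes just below the limit resembled members in some genes the rule did not use and were lower in others. Lhcgr was at 896 CPM there, Prlr at 1466, Aldh1a1 at 3591 and Fdx1 at 2181.5, against 1190, 1653, 3927 and 3566 in members at 0.5 to 1%. Further from those members were Hsd17b3 (185 against 365 CPM), Bhmt (459 against 962) and Sult1e1 (62.5 against 152). Of 6239 genes 98.5% were within 2-fold of those members, 75 were higher and 18 lower. The 75 higher genes were led by genes of male germ cells: Sycp3, of the synaptonemal complex, was 3.26-fold higher and Ddx4 2.79-fold. The Sertoli gene Cst9 was 2.75-fold higher. Their median depth was 4879 UMIs, against 8790 in members at 0.5 to 1%.

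**Figure D4:**
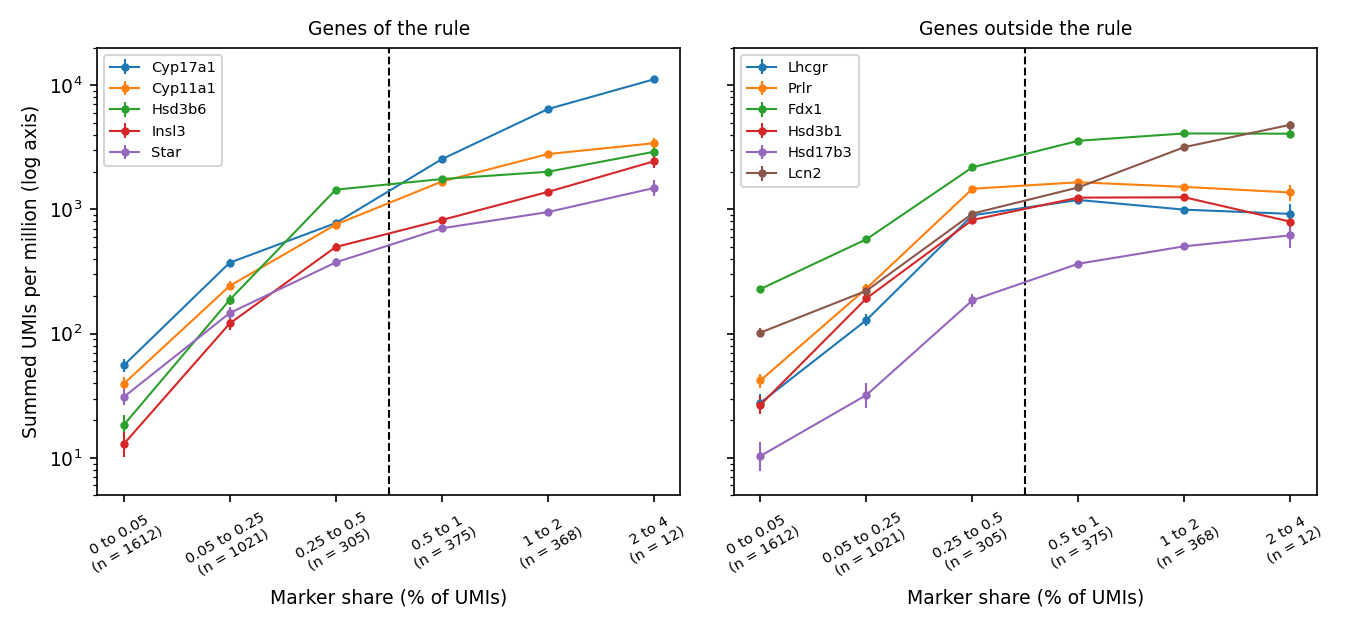
Summed CPM (log axis) of 5 rule genes (left) and 6 other genes (right) in bins of marker share, with exact Poisson 95% intervals; only barcodes with at most 3 Ddx4 and Dazl UMIs enter, and the dashed line marks 0.5%. Cyp17a1 climbs across all bins, whereas Lhcgr stands at 896 in the bin below the line and 1190 in the bin above it.

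Spread among Leydig barcodes was described after thinning to 5000 UMIs, which left 730 of 755. The 10 genes of highest variance over mean, ranked at 1000 UMIs per barcode, were Malat1, Gm42418, Lcn2, Fabp3, Agt, Tmsb4x, Cst3, Cyp17a1, Fdx1 and Hsd3b1; at 5000 UMIs Klk1b27 stood in the place of Fdx1. Malat1 had 1 to 487 UMIs per 5000, with a median of 130, a 10th percentile of 20.9 and a 90th of 265.1. Its level ranked opposite to the summed ribosomal protein genes (Spearman rho -0.51 across 730 barcodes) and little with the mitochondrial share (-0.16). Lcn2 had 0 to 175 UMIs, a median of 6 and a 90th percentile of 26.0. Agt, which encodes angiotensinogen, had 0 to 61 UMIs with a median of 3 and none in 98 barcodes.

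Some of the variable genes ranked together across barcodes. All rho values are Spearman's over the 730 thinned barcodes of 1 library, which share that library and a fixed depth, and they are given as description. Lcn2 ranked with Fabp3 (0.58) and Insl3 (0.54), and Insl3 with Fabp3 (0.51). The rule gene Cyp17a1 ranked with Fabp3 (0.42) and, among genes outside the rule, most with the fatty acid desaturase gene Fads2 (0.46). Insl3 had a rho of 0.08 with Cyp11a1, 0.10 with Star and -0.01 with Hsd3b6. Members were chosen on the sum of these genes, which can lower correlations among the 5 rule genes.

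Hsd3b1 and Hsd3b6, paralogues for the step from pregnenolone to progesterone, ranked against each other. They lie next to each other in mm10, Hsd3b6 at chr3:98805504-98814443 and Hsd3b1 at chr3:98852194-98859794, both on the minus strand. Per 5000 UMIs Hsd3b6 had 0 to 29 UMIs with a median of 9, and Hsd3b1 0 to 42 with a median of 4. Their rho was -0.37 in members at 5000 UMIs and -0.36 at 3000. In barcodes left out only for having over 10% mitochondrial UMIs it was -0.51 (243 barcodes), and -0.21 in 151 barcodes at 0.25 to 0.5% marker share. Of the 451 windows of 50 bases in the last 500 bases of each transcript, 0 occurred in the other gene's transcripts.

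A small set of Leydig barcodes had almost no Hsd3b6. This set was picked out after the values had been seen, while looking through the genes that ranked with the most variable ones, and its limit of 0.02% of UMIs was set from their distribution. Of 730 members with at least 5000 UMIs, 50 (6.85%, exact Clopper-Pearson 5.13 to 8.93) were below it, 36 of them with 0 Hsd3b6 UMIs, while 38 lay at 0.02 to 0.06% and 642 above. Among the 243 otherwise alike barcodes over 10% mitochondrial UMIs, 57 (23.5%, 18.3 to 29.3) were below. The median Hsd3b1 count was 28 UMIs in the 50 and 7 in the rest, at like median depth (9012 and 9208.5 UMIs) and mitochondrial share (7.91 and 7.96%). In 2 of the 50, both paralogues were at 0.

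**Figure D5:**
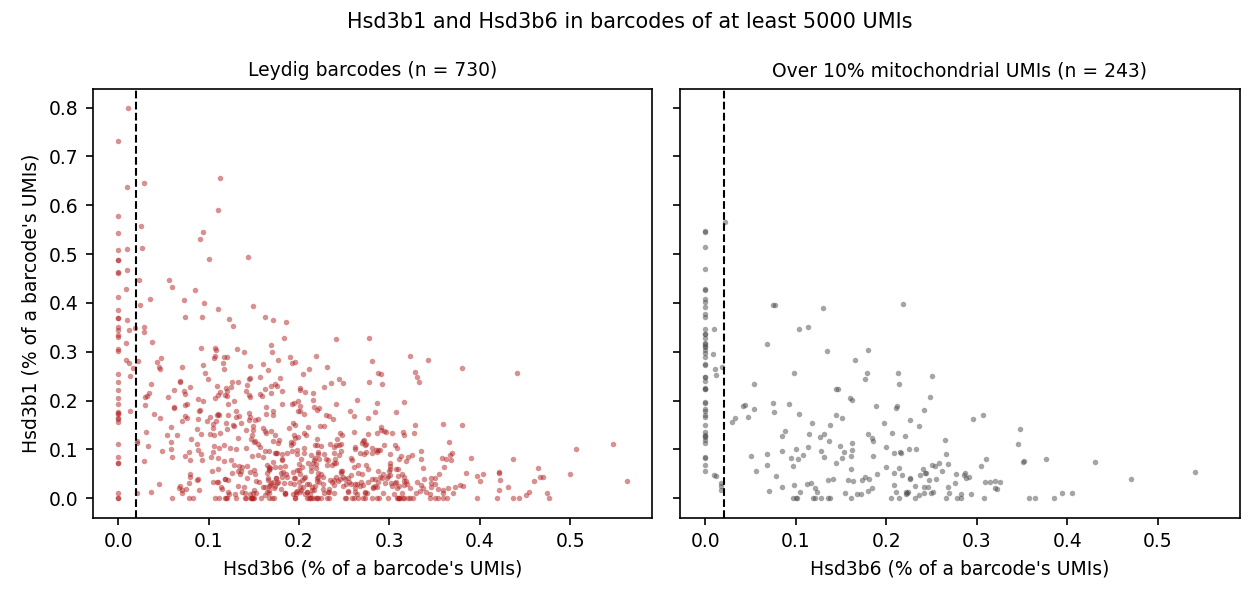
Hsd3b1 against Hsd3b6, as percent of a barcode's UMIs, in Leydig barcodes (left, 730) and in barcodes that met every limit except that on mitochondrial UMIs (right, 243), all with at least 5000 UMIs; the dashed line marks 0.02%. To the left of the line lie 50 and 57 barcodes, most of them with Hsd3b1 UMIs.

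Other genes were compared between the 50 barcodes and the rest of the 730. Hsd3b1 was at 3161 CPM in the 50 and 1103 in the rest, a ratio of 2.86 (2.70 to 3.03). Sult1e1 was 2.88-fold higher (2.499 to 3.31), Inha, the inhibin alpha subunit, 2.31-fold (2.09 to 2.55), Agt 2.04-fold (1.91 to 2.18) and Cyp11a1 1.65-fold (1.56 to 1.73). Trf, which encodes the iron carrier transferrin, had a ratio of 0.361, and the stromal matrix genes Dcn and Col1a2 had ratios of 0.439 and 0.467. Cyp17a1 (1.05), Insl3 (0.923), Lhcgr (1.07) and Prlr (0.943) were near 1. Both sets had to reach the same marker share, so barcodes low in Hsd3b6 needed more UMIs of the other 4 rule genes, and the ratio of Cyp11a1 is not independent of that. Of 3430 genes with at least 30 UMIs in the 50 or 300 in the rest, 18 were at least 2-fold higher and 35 lower. The 35 include Hsd3b6, whose low level the split itself fixed.

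The same split was made in the barcodes over 10% mitochondrial UMIs, which met the same marker share. Of the 18 genes at least 2-fold higher in the 50, 15 were on the same side there and 9 past 2-fold. Of the 35 lower, 32 were on the same side and 20 past 2-fold. Hsd3b6 is counted in each of these lower numbers, and its repeat was fixed because both sets were split on it. The share of all genes on the same side there is not given. The split gave ratios of 2.49 for Hsd3b1, 2.501 for Sult1e1, 3.15 for Inha, 2.99 for Agt and 1.57 for Cyp11a1. Trf had a ratio of 0.122 and Dcn of 0.245. Other genes did not repeat: Sv2c, a synaptic vesicle protein gene, went from 4.34 in the members to 1.66 (0.930 to 2.87), the cell cycle inhibitor gene Cdkn1a from 3.40 to 1.54 (0.647 to 3.42) and Egflam from 2.38 to 0.764. Star (0.594), Cyp17a1 (0.698), Lhcgr (0.675) and Insl3 (0.757) had ratios below 1 there, and Lcn2 went from 0.830 to 1.45. The fetal marker Cyp21a1 had 29 UMIs in 4 of the 57 barcodes low in Hsd3b6, up to 12 in 1 barcode, and 6 UMIs in 5 of the other 186, a ratio of 15.6 (6.38 to 46.0) that rests on those 4 barcodes. In the members the 50 had 0 Cyp21a1 UMIs and the rest 21 in 10 barcodes, too few to give a direction. All barcodes came from 1 library, so these ratios carry no error between animals.

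The barcodes left out for mitochondrial UMIs were otherwise close to the members. With mitochondrial genes taken out of the totals, 99.1% of 8164 genes were within 2-fold. Cyp17a1 had a ratio of 1.04 and Hsd3b6 of 0.815. Svs5, a seminal vesicle protein gene, was 6.60-fold higher (5.55 to 7.86), Klk1b27 2.85-fold, Ptgds 2.70-fold and Lcn2 2.18-fold.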

How the data were processed

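Single-cell 3′ RNA libraries of mouse testis cells were made with the Chromium Next GEM 3′ v3.1 kit, per the labels' protocols. The deposited UMI counts per gene and barcode came from Cell Ranger 7.1.0, per the file headers. STAR and the mm10 build are named as well, per the submitters' processing notes. The deposited barcode and feature lists of the other 3 libraries were used only to count shared barcodes; their count matrices were not analysed here. Neither the authors' cell calling nor the number of animals per library is stated in the sources.

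Leydig barcodes were chosen by the rule in the report. UMIs were summed over barcodes and given as CPM, scaled to 1000000 UMIs, with exact Poisson 95% intervals, and ratios with exact conditional binomial intervals. A sum of 0 was set to 3 counts for a ratio, and a gene was called only where the higher side had UMIs. That last condition was added after small alternatives had given calls from sums of 0; it did not change the counts in the report. With 1 library per group no test was made, and barcodes are not replicates. Doublets were kept, since Scrublet (scanpy 1.11.5) entered as an alternative only. Computations ran in Python 3.11.15 with pandas 2.3.3, scipy 1.17.1, numpy 2.4.6 and, for plots, matplotlib 3.10.9. Gene positions came from GENCODE on mm10 and promoters from RefSeq (GRCm38.p6). Tested on simulated counts for 18625 genes, 96.0% of the intervals for Leydig over all other barcodes held the true ratio.

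Members, lists and classes were chosen with earlier results of these data known. Genes named were Znhit1 and the 5 rule genes, the 25 largest ratios outside the rule (a UMI in at least 10% of members), the 5 smallest (at least 100 CPM in the others), the 10 of highest level, the 10 of highest variance over mean, and in each list the 3 largest upward ratios, the largest downward one and the member of highest level. Some genes that this rule takes are not reported here. Other genes were named after their values were seen. So were chosen the thinning to 5000 and 3000 UMIs, the ratios between ranges of marker share, the rank correlations, the list counts without rule genes, the set low in Hsd3b6, its comparison in barcodes over 10% mitochondrial UMIs, the promoters shown, and the printing of the low-germ reference beside the other. Alternatives varied the marker, mitochondrial, depth and germ limits, the doublets, the weighting, the minimum count, the markers and the reference.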

Additional observations from a re-analysis of the deposited data

How the results depend on the processing

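No paired analysis was possible because each group has 1 library and no test was made. Over 20 settings, 334 of 360 counts stayed within 1.5 times the reported one. Ratios of single named genes were less stable: with the reference of at most 3 germ UMIs 85 of 98 moved by over 1.5 times and 13 lost their call, and over 1.5 times moved 61 of 87 at the 2% share, 55 of 98 with the reference under 0.1% marker share, 52 of 91 at 5% mitochondrial UMIs, 47 of 97 with 0 germ UMIs and 43 of 97 at the 1% share. The number of Leydig barcodes was 380 at a marker share of at least 1%, 12 at 2%, 25 at no more than 5% mitochondrial UMIs and 442 with 0 germ UMIs. The genes at least 2-fold lower in Leydig barcodes numbered 3111 at the 2% share and 3399 at 5% mitochondrial UMIs. With so few members a sum of 0, set to 3 counts, stands for a higher level, so fewer absent genes can be called lower. Against other barcodes with at most 3 germ UMIs, 1023 genes were higher and 5051 lower. With that reference the higher genes numbered 9 for cholesterol uptake, 3 for LH and cyclic AMP, 3 for transcription factors, 1 for immature and 1 for stem and progenitor genes, 4 for secreted factors, 10 for receptors, 12 for oxidative stress, 0 for dissociation stress and 0 for H2A.Z deposition. Stem and progenitor genes higher numbered 3 at the 1% share, 2 at 2% and 3 with equal weight for each barcode. At the 2% share 4 LH and cyclic AMP genes and 1 immature gene were higher. The 1 higher fetal gene became 0 at the 2% share, at 5% mitochondrial UMIs and at a minimum of 100 UMIs. Nes turned to a ratio of 1.18 at 5% mitochondrial UMIs and Pdgfra to 0.917 against the low-germ reference; the cause was not tested. Depth limits the fetal genes, which had 21 UMIs or fewer. Hsd11b1 also had few UMIs, but its interval in Leydig barcodes lay below its level in stroma barcodes.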
